A study of Mus musculus with 4 samples.

Results

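The type II cadherins are cell adhesion proteins, and 10 of their genes, Cdh20, Cdh7 and Cdh19 on chromosome 1, Cdh8 and Cdh11 on chromosome 8, and Cdh6, Cdh9, Cdh10, Cdh12 and Cdh18 on chromosome 15, were followed by their replication timing in mouse embryonic fibroblasts. The members were chosen by position: an array probe belonged to a locus when its midpoint on mouse build mm9 lay in a fixed interval around the gene. The intervals held 377 probes, of which 376 were usable on all arrays, out of 169660 usable probes in all. All 10 loci were measured, with 15 probes at Cdh19 and 96 at Cdh12 as the extremes. The loci were picked with timing results of these arrays known, so their timing is given as a description and without a test.

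Fibroblasts are connective tissue cells, here cultured from mouse embryos at 3% O2. The KO array held cells in which, by their labels, floxed Suv4-20h1 had been deleted, and the control array held cells labelled as control. The induced and non-induced arrays held cells labelled as an induced and a non-induced Suv4-20h mutant. The cell line fields of all 4 samples give MEF 362.2, whereas their protocols give 364.2, and no label names the Cre driver, the state of Suv4-20h2, or how the mutant was induced. The treatment protocol, which is the same text for all 4 samples, describes deletion with 4-hydroxytamoxifen (1 mM, 24 hours). Suv4-20h enzymes methylate a lysine of histone H4, whose dimethylated form is widespread in the genome and whose trimethylated form marks heterochromatin.

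Cells took up the nucleotide analogue BrdU (50 µM), 80000 cells were sorted into early and late S phase fractions, and BrdU-labelled DNA, amplified after pull-down, was put on 1 array per group, early DNA in the green and late DNA in the red channel. Timing is log2 of early over late signal, set to 0 at the autosomal probe median of each array, so a lower value means later replication. KO and control lay on 1 slide, and induced and non-induced on another. Each group has 1 array, so the spread between cultures is unknown, and the standard errors below are over the probes of a locus, which neighbour each other and are not independent. Arrays differed in spread, here the 90th minus the 10th percentile of timing over 200 kb windows, at 2.31 in KO, 1.81 in control, 2.70 in induced and 2.07 in non-induced cells. Over all windows the median difference was -0.16 for KO minus control and -0.13 for induced minus non-induced, and the differences of the loci below are to be read against these.

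Classical cadherins hold cells together through calcium-dependent binding of their outermost domains, and type II members differ from type I members such as E-cadherin in that they anchor the exchanged strand with a pair of tryptophans. Their overlapping expression patterns sort neurons, glia and mesenchyme into distinct groups of cells. DNA of silent, gene-poor regions usually replicates late in S phase, and genes active in a cell type usually replicate early. Of the members, Cdh11 (OB-cadherin) is the one best known from fibroblasts, osteoblasts and other mesenchymal cells, whereas most of the others are known from the nervous system.

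The gene order of the RefSeq table for GRCm38.p6, used for names and order only, placed no other protein-coding gene between Cdh7 and Cdh19, between Cdh8 and Cdh11, or between Cdh6, Cdh9, Cdh10 and Cdh12. Acot10 alone lay between Cdh12 and Cdh18, while 21 coding genes lay between Cdh20 and Cdh7. The loci held 57.1 to 88 probes per Mb, and the left and right flank of 500 kb pooled held 24 to 53, so each locus was denser than its flanks as a pair. The left flank of Cdh6 alone was an exception, with 42 probes in its 500 kb, a higher density than that of the locus. The files name no genes by probe, so the intervals could not be checked against gene names.

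The promoters at hand differed in their number of CG dinucleotides. RefSeq promoter windows (250 bases before to 50 after a start, build GRCm38.p6) were at hand for 8 of the 10 genes in 10 windows, 3 of them for Cdh7 and none for Cdh11 or Cdh19. The number of CG dinucleotides was 21 in the window of Cdh8, 18 in that of Cdh20, 18, 19 and 4 in those of Cdh7, 12 in that of Cdh18, 9 in that of Cdh12, 8 in those of Cdh6 and Cdh9, and 2 in that of Cdh10. The median over all 32851 windows was 7, and 24.8% of all windows held at least as many as Cdh8 and 85.9% at least as many as Cdh10. Of the 10 member windows, 8 held at least the median number. Among the 42 pairs of windows of different members, searched on both strands, the longest run of identical bases was 15 long and joined Cdh6 and Cdh9, neighbours on chromosome 15. It began at base 233 of the Cdh6 window and at base 42 of the Cdh9 window, counted from 1 at the 5′ end, and of all windows 2 (0.0061%) held it on either strand. These were the windows of the pair itself, and the run was picked as the longest, so nothing is read from that share. The windows shown are these, the pair with the shared run first (capitals mark the run) and then the members with the most and the fewest CG among genes with 1 window (capitals mark CG). They are Cdh6 (chr15:13173626-13173925, minus strand), Cdh9 (chr15:16728665-16728964, plus strand), Cdh8 (chr8:99416422-99416721, minus strand) and Cdh10 (chr15:18820079-18820378, plus strand).
Cdh6: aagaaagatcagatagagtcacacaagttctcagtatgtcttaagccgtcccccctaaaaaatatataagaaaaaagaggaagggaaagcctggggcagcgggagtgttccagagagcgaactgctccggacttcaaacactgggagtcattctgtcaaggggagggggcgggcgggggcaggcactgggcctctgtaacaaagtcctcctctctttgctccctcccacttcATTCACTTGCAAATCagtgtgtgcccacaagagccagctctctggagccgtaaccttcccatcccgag
Cdh9: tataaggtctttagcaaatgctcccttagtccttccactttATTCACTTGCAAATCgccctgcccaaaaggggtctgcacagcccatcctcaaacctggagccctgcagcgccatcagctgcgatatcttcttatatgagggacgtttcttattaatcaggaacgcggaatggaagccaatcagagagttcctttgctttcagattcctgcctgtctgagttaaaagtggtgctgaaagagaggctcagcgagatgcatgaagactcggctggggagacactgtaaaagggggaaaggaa
Cdh8: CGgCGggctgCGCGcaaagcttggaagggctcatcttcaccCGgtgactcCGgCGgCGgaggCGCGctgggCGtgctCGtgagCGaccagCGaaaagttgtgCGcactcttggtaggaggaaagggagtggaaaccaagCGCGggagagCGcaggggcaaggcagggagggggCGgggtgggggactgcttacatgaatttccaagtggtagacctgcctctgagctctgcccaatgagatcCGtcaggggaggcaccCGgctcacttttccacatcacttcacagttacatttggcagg
Cdh10: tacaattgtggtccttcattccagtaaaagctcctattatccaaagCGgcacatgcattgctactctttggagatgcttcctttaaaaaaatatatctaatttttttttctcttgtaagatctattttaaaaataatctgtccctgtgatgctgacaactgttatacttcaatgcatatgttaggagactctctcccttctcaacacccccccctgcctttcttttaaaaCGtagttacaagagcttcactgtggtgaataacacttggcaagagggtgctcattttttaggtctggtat

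All 10 loci had lower, that is later, timing on the KO than on the control array, where 64.6% of all windows did. All 10 were also lower on the induced than on the non-induced array, where 63.9% of windows were. The median over the loci was -1.29 in KO and -0.27 in control cells, and -1.14 in induced and -0.51 in non-induced cells. Over all windows the medians were -0.39 in KO, -0.16 in control, -0.51 in induced and -0.26 in non-induced cells. In control cells 3 of the loci, Cdh19, Cdh8 and Cdh9, lay slightly above 0, whereas on the KO, induced and non-induced arrays all 10 lay below it. The loci also lay closer together in KO cells, over a range of 0.69, than in control cells, over a range of 1.34, while the ranges were 1.28 in induced and 1.41 in non-induced cells.

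**Figure D1:**
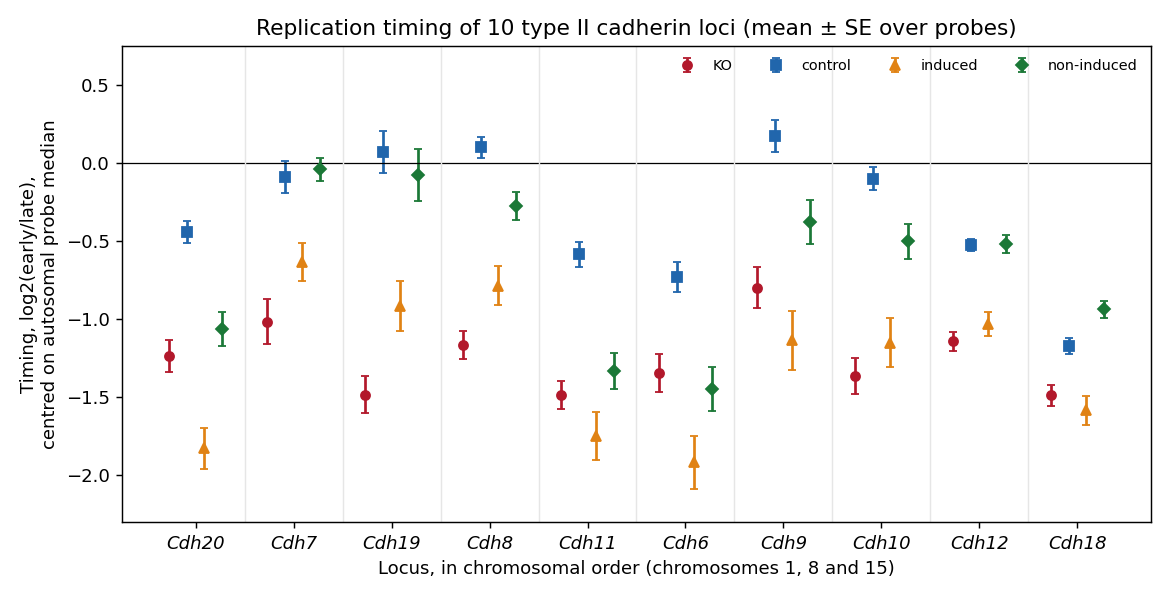
Timing (log2 of early over late signal, y axis) of each locus (x axis) on the KO, control, induced and non-induced arrays; points are means and bars standard errors over the probes of the locus. The KO points span -1.49 to -0.80 and lie below the control points, which span -1.17 to 0.17, at every locus, and the induced points lie below the non-induced points at every locus.

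Of the genes on chromosome 1, Cdh20 is known from motor neurons in chick, Cdh7 marks migrating crest cells in chick, and Cdh19 marks Schwann cell precursors in rat and mouse. Cdh20 (chr1:106600000-106950000, 27 probes) had timing of -1.23 ± 0.10 in KO and -0.44 ± 0.07 in control cells, and -1.83 ± 0.13 in induced and -1.06 ± 0.11 in non-induced cells. It was the most strongly late of the chromosome 1 loci on the induced and non-induced arrays. Cdh7 (chr1:111850000-112100000, 22 probes) had -1.02 ± 0.15 in KO and -0.09 ± 0.10 in control cells, and -0.63 ± 0.12 in induced and -0.04 ± 0.08 in non-induced cells. Cdh19 (chr1:112750000-112950000, 15 probes) had -1.48 ± 0.12 in KO and 0.07 ± 0.13 in control cells, and -0.91 ± 0.16 in induced and -0.08 ± 0.17 in non-induced cells. Cdh7 and Cdh19 were thus near the array centre in control and non-induced cells, between percentile 52.7 and 58.9 of windows, and Cdh19 was at percentile 6.33 on the KO array.

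On chromosome 8, Cdh8, a cadherin of developing neural circuits, lies next to Cdh11, the mesenchymal cadherin. Cdh8 (chr8:101500000-102000000, 44 probes) had -1.17 ± 0.09 in KO and 0.10 ± 0.07 in control cells, and -0.78 ± 0.13 in induced and -0.27 ± 0.09 in non-induced cells. Cdh11 (chr8:105100000-105350000, 22 probes) had -1.49 ± 0.09 in KO and -0.58 ± 0.08 in control cells, and -1.75 ± 0.15 in induced and -1.33 ± 0.12 in non-induced cells. Cdh11 was therefore later than the neuronal gene beside it on all 4 arrays, at percentile 6.21 of windows in KO and 30.5 in control cells, and 5.61 in induced and 3.10 in non-induced cells. RNA was not measured, so whether Cdh11 was expressed in these cells is not known from the files.

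On chromosome 15 the first gene in order is Cdh6, known from the developing kidney and the retina, followed by Cdh9, which takes part in forming hippocampal synapses in mouse, and by Cdh10, Cdh12 and Cdh18, which are expressed mainly in the brain. Cdh6 (chr15:12900000-13200000, 22 probes) had -1.34 ± 0.12 in KO and -0.73 ± 0.10 in control cells, and -1.92 ± 0.17 in induced and -1.45 ± 0.14 in non-induced cells, the lowest value of the 10 on both of these arrays. Cdh9 (chr15:16600000-16950000, 20 probes) had -0.80 ± 0.13 in KO and 0.17 ± 0.10 in control cells, and -1.14 ± 0.19 in induced and -0.38 ± 0.14 in non-induced cells. It had the highest timing of the 10 in both KO and control cells. Cdh10 (chr15:18700000-19050000, 29 probes) had -1.36 ± 0.12 in KO and -0.10 ± 0.07 in control cells, and -1.15 ± 0.15 in induced and -0.50 ± 0.11 in non-induced cells. Cdh12 (chr15:20400000-21600000, 96 probes) had -1.14 ± 0.06 in KO and -0.53 ± 0.04 in control cells, and -1.03 ± 0.08 in induced and -0.52 ± 0.06 in non-induced cells. Cdh18 (chr15:22400000-23500000, 79 probes) had -1.49 ± 0.07 in KO and -1.17 ± 0.05 in control cells, and -1.58 ± 0.10 in induced and -0.94 ± 0.06 in non-induced cells. From Cdh9 through Cdh10 and Cdh12 to Cdh18, control timing was lower at each next gene, and non-induced timing was too, but there the steps between Cdh9 and Cdh10 and between Cdh10 and Cdh12 were within error.

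Few neighbours in the order of levels were apart by more than 1.96 times the combined standard error over probes. In KO cells no gap of the 9 was, in control cells 2 were, between Cdh18 and Cdh6 and between Cdh20 and Cdh10, and in induced and non-induced cells 1 each was, between Cdh18 and Cdh10 in induced and between Cdh18 and Cdh12 in non-induced cells. On the induced and on the non-induced array, 4 loci, Cdh6, Cdh11, Cdh20 and Cdh18, thus lay below the other 6. Likeness of the members, as the Euclidean distance between their timing on the 4 arrays, was closest for Cdh11 and Cdh6, at 0.29, which lie on different chromosomes. Cdh7 and Cdh8 followed, at 0.37, and Cdh20 was nearest to Cdh11, at 0.40. The most distant pair was Cdh6 and Cdh7, at 2.04. Chromosomal neighbours were not each other's nearest members except for Cdh10 and Cdh12, at 0.50.

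The first comparison of the design sets KO against control cells. A locus or window was called later when its mean difference reached 0.25 of the control array's spread, which is 0.45, and was also 3 or more standard errors from 0. Of the 10 loci 9 were called later and 0 earlier, where 22.1% of all windows were called later and 8.06% earlier; since the loci were chosen with this comparison known, nothing is read from that contrast. With arrays centred on the median window in place of the median probe, 7 loci were called later and 0 earlier, where 10.6% of windows were later and 17.9% earlier. The largest difference was at Cdh19, -1.55 ± 0.10, where all 15 probes were lower in KO cells. Cdh8 at -1.27 ± 0.10 and Cdh10 at -1.26 ± 0.12 followed, with 42 of 44 and 29 of 29 probes lower. Cdh9 (-0.97 ± 0.14), Cdh7 (-0.93 ± 0.13), Cdh11 (-0.90 ± 0.12) and Cdh20 (-0.79 ± 0.11) were intermediate. Cdh12 at -0.62 ± 0.06 and Cdh6 at -0.61 ± 0.10 were the smallest of the called differences, and Cdh18 at -0.32 ± 0.06 was not called. Cdh18 stood at percentile 6.11 of windows in KO cells and 1.87 in control cells, so it was among the latest of the genome on both arrays.

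Over the probes of all loci, 89.6% were lower in KO than in control cells, where 56.4% of all probes were. Inside the loci, 21 of 28 windows of 200 kb were called later and 0 earlier, and 5 of the 7 that were not called lay in Cdh18. With arrays scaled to the same spread, the differences were -1.51 at Cdh19, -1.24 at Cdh8 and -1.19 at Cdh10, and 7 loci were called, where 13.6% of windows were later. That of Cdh18 was 0.0070 after scaling and 0.21 with quantile normalization, under which 6 loci were called and 9.47% of windows were later. With normexp background correction on raw signals, 5 loci were called, where 13.6% of windows were later, the differences lay between -0.85 and -0.07, and those of Cdh12 (-0.07) and Cdh20 (-0.18) were among the smallest. Over probes well above background in both channels on all arrays, which left 7 to 52 probes per locus, 9 loci were called, where 14.2% of windows were later, with differences of -1.54 to -0.18.

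The second comparison sets induced against non-induced cells. By the same rule, with the non-induced array setting the limit at 0.52, 6 of the 10 loci were called later and 0 earlier, where 11.9% of windows were called later and 0.467% earlier. Cdh19 had the largest difference, -0.84 ± 0.22, with 12 of 15 probes lower in induced cells. Cdh20 at -0.77 ± 0.12, Cdh9 at -0.76 ± 0.23, Cdh10 at -0.65 ± 0.14, Cdh18 at -0.65 ± 0.09 and Cdh7 at -0.59 ± 0.13 were the others called. Cdh12 and Cdh8, both at -0.51, lay just short of the limit, and Cdh6 at -0.47 ± 0.12 and Cdh11 at -0.41 ± 0.10 below it. Of the probes in the loci, 80.1% were lower in induced cells, where 57.1% of all probes were.

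The number of loci called in the second comparison ranged from 0 to 7 over the alternatives that kept the call threshold. It was 10 only when the threshold was lowered to 0.15 of the spread on unchanged values. Cdh19 alone was called with arrays scaled to the same spread, where 1.87% of windows were later, and Cdh20 alone over probes well above background, where 5.75% were. No locus was called with quantile normalization, where 1.14% of windows were later, with centring on the median window, where 2.37% were later and 8.97% earlier, or with normexp, where 2.03% were later. After scaling, the differences lay between -0.67 and -0.0061, with the median window at -0.093. Cdh11 (-0.0061) and Cdh6 (-0.023) then lay above that median. With normexp they lay between -0.35 and -0.011, with the median window at -0.059. Cdh19 (-0.045), Cdh8 (-0.011), Cdh10 (-0.043) and Cdh18 (-0.050) then lay above it. All 10 loci were below 0 under both, as was the median window. Quantile normalization put Cdh11 (0.11) and Cdh6 (0.098) above 0, with the median window at 0.0049.

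**Figure D2:**
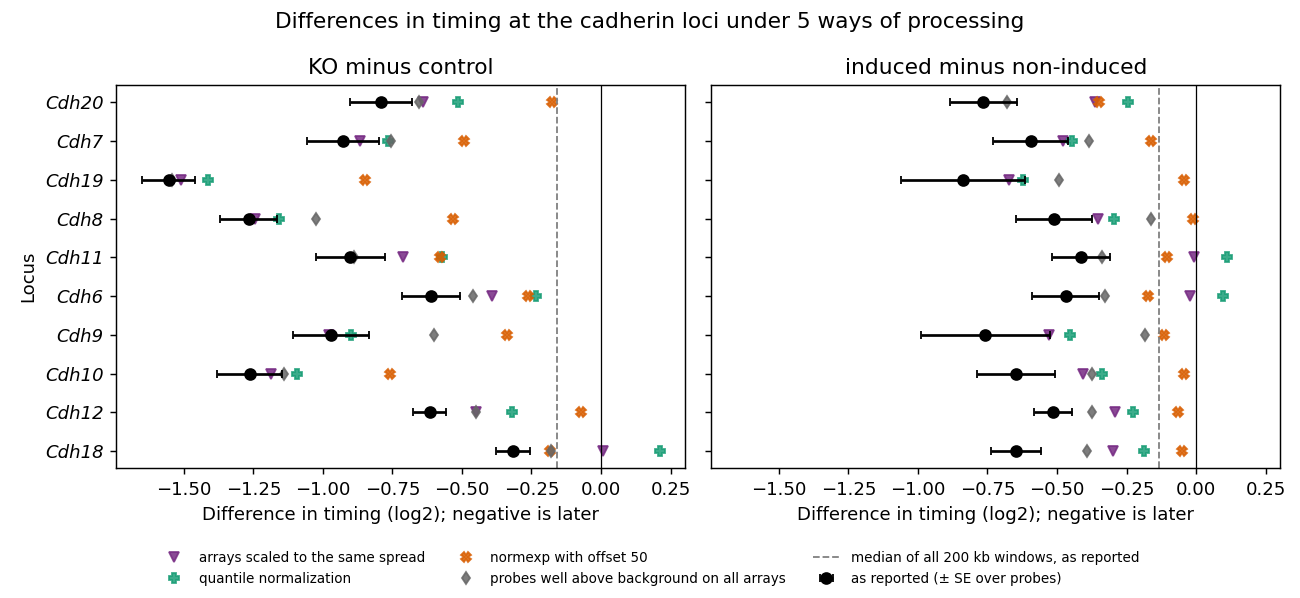
Difference in timing (log2, x axis; negative is later) at each locus (y axis) for KO minus control (left) and induced minus non-induced (right); black points are the values as reported with standard errors over probes, other symbols 4 alternative ways of processing, and the dashed line the median of all windows. In KO minus control, Cdh19 stays between -1.55 and -0.85 under the ways shown, while Cdh18 lies between -0.32 and 0.21. In induced minus non-induced, all values with normexp lie between -0.35 and -0.011, where the median window with normexp was -0.059.

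The size of the difference did not follow the same order of genes in both comparisons. Cdh18 had the smallest difference for KO, -0.32, and was called later for induced cells, at -0.65. Cdh8 had the second largest for KO, -1.27, and was not called for induced cells, at -0.51. Whether these differences between comparisons exceed the spread between cultures cannot be tested with 1 array per group. Non-induced and control cells, which lay on separate slides, were themselves apart at some loci: non-induced minus control was -0.75 ± 0.16 at Cdh11, -0.72 ± 0.15 at Cdh6 and -0.62 ± 0.11 at Cdh20, against 0.0082 ± 0.07 at Cdh12, 0.05 ± 0.14 at Cdh7 and 0.23 ± 0.06 at Cdh18.

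The loci differed in their surroundings. Cdh20 and Cdh6 lay beside an early domain: bins centred 0.9 Mb to the right of the centre of Cdh20 reached 1.01 in KO, 0.82 in control, 1.14 in induced and 0.78 in non-induced cells, and those 0.9 Mb to the left of that of Cdh6 reached 0.80 in KO, 0.57 in control, 0.92 in induced and 0.81 in non-induced cells. In these bins KO and induced timing was above control and non-induced timing, the opposite of the order at the genes. Around Cdh7, Cdh19, Cdh8, Cdh9, Cdh10 and Cdh12, no bin within 2 Mb was above -0.15 in KO, -0.083 in induced or 0.18 in non-induced cells. Control bins there reached 0.57, the control value of the bin left of Cdh6 above. The highest control bins were 0.82 around Cdh20 and 0.95 around Cdh6. KO timing was below control in all 20 bins around each of these 6 loci. Bins of neighbouring loci overlapped in part, as for Cdh7 and Cdh19, so the same DNA was counted more than once. Around Cdh11, control timing was lower on the left flank of 500 kb, at -1.17, than in the locus, at -0.58, and was 0.07 on the right flank, whereas KO timing was -1.24, -1.49 and -1.03 from left to right.

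**Figure D3:**
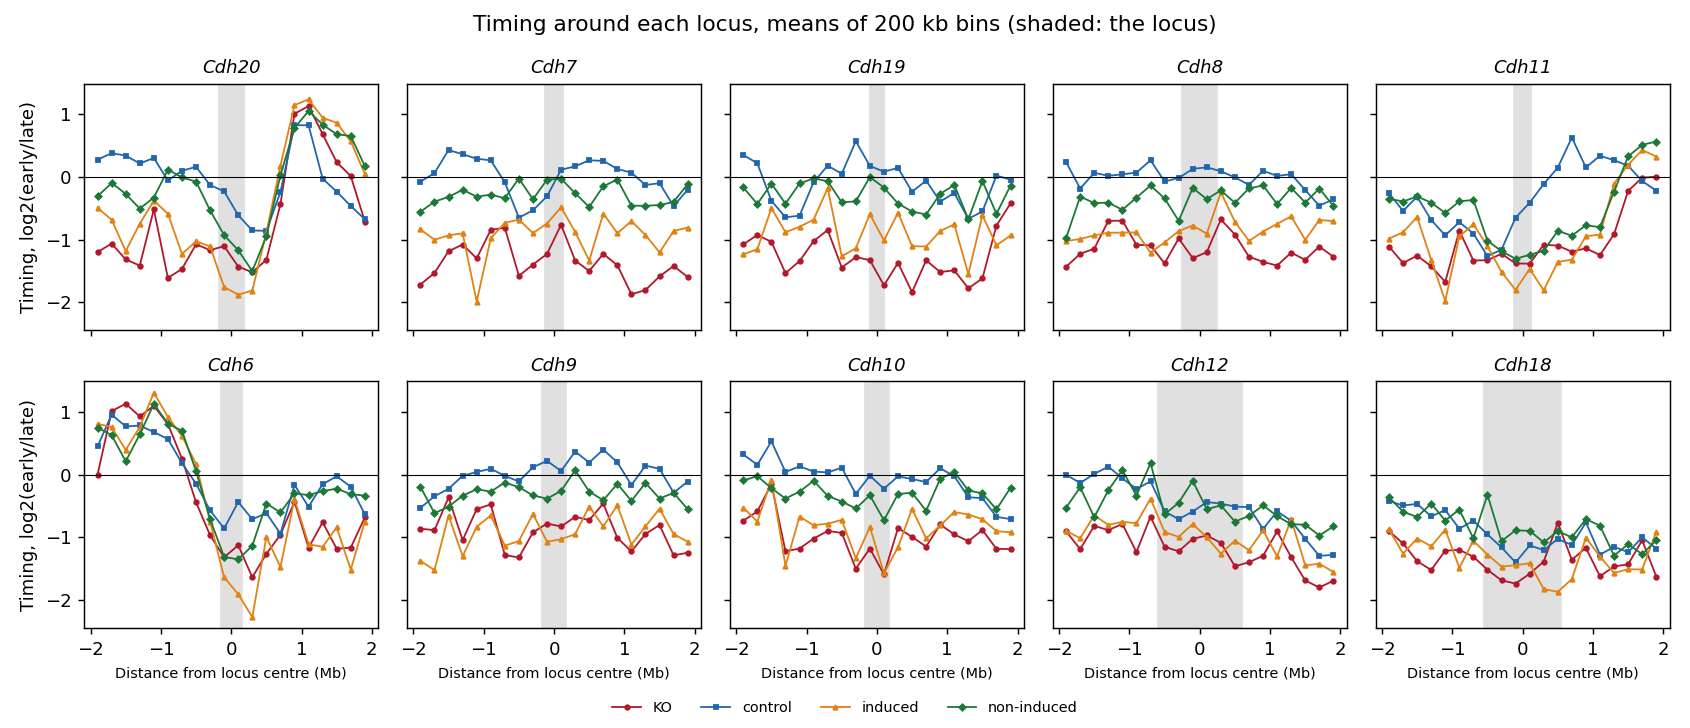
Timing (log2 of early over late signal, y axis) against distance from the centre of each locus in Mb (x axis), as means of 200 kb bins with at least 3 probes, on the KO, control, induced and non-induced arrays; the locus is shaded. KO timing at 0.9 Mb is 1.01 to the right of Cdh20 and 0.80 to the left of Cdh6, above control at 0.82 and 0.57, and KO lies below control in all 20 bins around Cdh7, Cdh19 and Cdh8. The bins of Cdh7 and Cdh19 overlap in part.

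The differences were not limited to the genes. KO minus control was below 0 in all 20 flanks, where it was in 64.6% of all windows. The flanks were not all distinct: the right flank of Cdh7 overlapped the left flank of Cdh19, and that of Cdh12 overlapped the left flank of Cdh18. Induced minus non-induced was below 0 in 19 of 20 flanks, where it was in 63.9% of windows. The exception was the left flank of Cdh6 at 0.0067 ± 0.05, and the right flank of Cdh20, at -0.023 ± 0.09, was within error of 0. For KO minus control, the flanks of Cdh19 had -1.60 ± 0.23 on the left and -1.72 ± 0.19 on the right, beside -1.55 in the locus. Those of Cdh11 had -0.07 ± 0.11 on the left and -1.10 ± 0.16 on the right, so KO and control cells differed to the right of the gene and little to its left. Those of Cdh6 had -0.29 ± 0.06 on the left and -0.72 ± 0.08 on the right. When windows called later less than 1 Mb apart were merged, the loci lay in or overlapped 6 regions in KO minus control. Cdh7 and Cdh19 shared one of 10.4 Mb with 43 called windows, Cdh9, Cdh10, Cdh12 and the left part of Cdh18 shared one of 6.6 Mb with 23, and Cdh20 lay in one of 6.6 Mb with 26. Cdh8 lay in one of 5 Mb with 22 called windows, Cdh11 in one of 1.8 Mb with 8, and the right part of Cdh6 in one of 1.8 Mb with 4. In induced minus non-induced, Cdh9, Cdh10 and all but the right end of Cdh12 shared a region of 5.4 Mb with 10 called windows, though no window inside Cdh9 was itself called. Cdh8 lay in a region of 5 Mb with 8 called windows, and Cdh7 and Cdh19 shared a region of 2.2 Mb with 3. Cdh20 lay in a region of 0.6 Mb with 3, and the right end of Cdh18 lay in another of 0.6 Mb with 3. The right part of Cdh6 lay in a region of 0.8 Mb with 2, and Cdh11 overlapped none.

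Each locus was also split at its midpoint. Right minus left part of Cdh12 was -0.02 ± 0.12 in KO and 0.16 ± 0.08 in control cells, and -0.21 ± 0.15 in induced and -0.16 ± 0.12 in non-induced cells. In Cdh18 the right part was higher than the left by 0.40 ± 0.12 in KO and by 0.10 ± 0.10 in control cells. KO minus control was accordingly -0.50 ± 0.10 over the left part of Cdh18 and -0.19 ± 0.07 over its right part. In Cdh10, right minus left was -0.72 ± 0.28 in induced and -0.38 ± 0.22 in non-induced cells.

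In KO minus control, the lower ratio went mainly with the early channel. Signal of each channel is given as log2 relative to its autosomal median. Early signal was lower in KO than in control cells at all 10 loci, by a median difference of -1.13, and late signal was lower at 7 and higher at 3, with a median difference of -0.27. Lower early signal was not particular to KO cells. Non-induced minus control, across slides, had a median early difference of -1.15 and a median late difference of -0.84, with both channels lower at all 10 loci. At Cdh11, early signal was -1.21 in KO and 0.35 in control cells, and late signal was 0.22 in KO and 0.91 in control cells. At Cdh19 and Cdh10 late signal was higher in KO cells, by 0.53 ± 0.17 and 0.32 ± 0.08. At Cdh12 late signal was lower in KO cells, at -0.67 against 0.21 in control cells. In induced minus non-induced, early signal was lower at all 10 loci, with a median difference of -0.40, and late signal was higher at 9 of 10, with a median difference of 0.15 and Cdh18 as the exception at -0.10 ± 0.05. The early channel was dim there: 38.6 to 72.7% of probes per locus were well above background in it on the induced array, and 66.7 to 90.9% on the non-induced array.

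**Figure D4:**
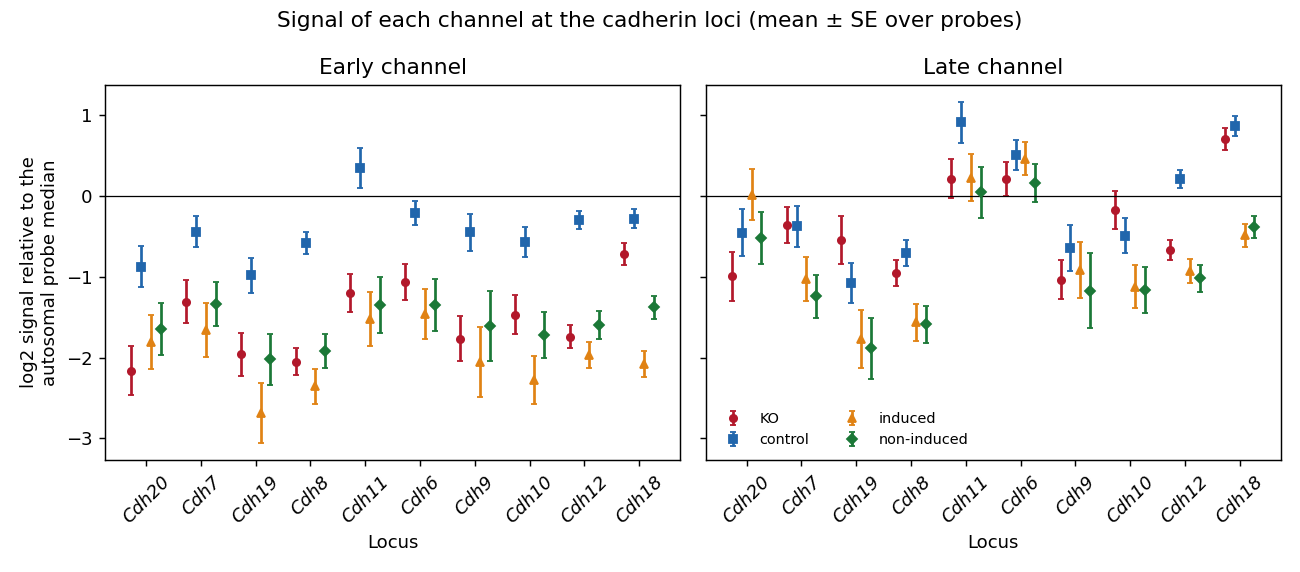
Signal of the early channel (left) and the late channel (right) at each locus (x axis) as log2 relative to the autosomal probe median of that channel and array (y axis); points are means and bars standard errors over probes. Early signal in control cells lies between -0.98 and 0.35 and is the highest of the 4 arrays at every locus, and late signal on the induced and non-induced arrays is lowest at Cdh19, at -1.77 and -1.89.

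Signal at the loci was below the array median in most cases. The mean of both channels, on the same log2 scale, had a median over the loci of -1.02 in KO, -0.47 in control, -1.40 in induced and -1.30 in non-induced cells, and it lay below the 10th percentile of windows at 5 loci in KO, 1 in control, 7 in induced and 6 in non-induced cells. Probes well above background in both channels made up a median of 81.2% per locus in KO, 94.4% in control, 55.4% in induced and 81.5% in non-induced cells, where the shares over all probes were 92.5% in KO, 94.1% in control, 88.6% in induced and 94.8% in non-induced cells. Cdh19 was the dimmest locus on the induced array, at percentile 0.87 of windows with 46.7% of its probes well above background, and Cdh11 in control cells was the brightest, at percentile 89.2. The part of dim signal in the differences was not tested; with probes well above background on all arrays (53.5% of those in the loci, 83.6% of all), the median difference over the loci was -0.71 for KO minus control and -0.37 for induced minus non-induced, against -0.91 and -0.62 with all probes.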

How the data were processed

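Values were taken from the scanner files of 4 arrays of 2 colours. Per the file headers, the scans went through Agilent Feature Extraction 11.5.1.1 (the submitters' processing notes name 9.1), and the deposited processed signal is an intensity after background subtraction and dye scaling, with probes on mm9. The deposited log10 ratio has late DNA on top and is exactly equal, with no tolerance, in all 180880 spots per array to that of the deposited value table, whose median per array was -0.021 (KO), 0.0061 (control), -0.015 (induced) and -0.0044 (non-induced); its sign follows from early DNA in Cy3 and late DNA in Cy5, per the labels. Per the file headers, flags are other columns holding 0 or 1.

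For timing, processed early signal was divided by late signal and put on a log2 scale, leaving out control spots and flagged spots (154 to 447 per array), averaged over spots of a probe and centred per array on autosomal probes. From 170183 autosomal and X probes, 169660 were kept, in 12000 windows of 200 kb with at least 5 probes. No dye was swapped, so a dye effect common to the arrays cancels only in differences. Median signal above local background was 140 to 204 (early) and 220 to 434 (late). The number of arrays, 1 per group, limits the precision, and no test between groups was made. The members and lists were chosen with earlier results of these data known. By rule, all 10 loci were named. The files pair no probe with a gene and the gene table is of another build, so the list of other cadherins and catenins and genes of like timing were not analysed here. The calling code was tested on simulated probe values, which says nothing of the spread between cultures. Alternatives covered scaling, quantile normalization, centring, normexp (offset 50), loess, dim and flagged probes, deposited values, odd and even probes, trend, thresholds, locus summary and extent, and window size. Python 3.11.15, numpy 2.4.6, pandas 2.3.3, R 4.3.3 and limma 3.58.1 were used.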

Additional observations from a re-analysis of the deposited data

How the results depend on the processing

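In this paragraph, a percentage in parentheses is the share of all 200 kb windows called later under that setting. For KO minus control, 9 loci were called later (22.1%). The count was 5 with normexp (13.6%) and 5 with the linear trend of the difference on timing removed (7.65%). It was 6 to 10 under the other alternatives (9.47 to 28.3%). Of the windows inside the loci, 21 of 28 were called later, and 13 were with quantile normalization, 10 with normexp and 9 with the trend removed. For induced minus non-induced, 6 loci were called later (11.9%). This count was 0 with quantile normalization (1.14%), centring on the median window (2.37%), normexp (2.03%) and the trend removed (0.675%). It was 1 with scaling to equal spread (1.87%), loess within arrays (7.55%) and probes well above background (5.75%). With a call threshold of 0.15 of the reference spread it was 10 (19.2%), and with 0.35 it was 3 (5.32%). It was 5 with odd (6.97%) and 4 with even probes (7.22%), and 4 to 7 with the deposited values, flagged spots kept, locus medians and extended loci (11.9 to 12%). Of 28 windows inside the loci, 11 were called later in induced cells. This count was 3 with scaling, 1 with quantile normalization, 4 with centring on the median window, 0 with normexp, 6 with loess, 5 of 24 with probes well above background, 4 of 26 with even probes, 0 with the trend removed and 7 with the threshold of 0.35. It was 11 of 45 windows of 100 kb and 7 of 10 windows of 500 kb. No locus was called earlier in either comparison under any alternative run, while 1 window inside the loci was, for KO minus control, with scaling, quantile normalization, centring on the median window and the trend removed; the share of all windows called later ranged from 7.65 to 28.3% for KO minus control and from 0.675 to 19.2% for induced minus non-induced with windows of 200 kb. The difference of no called locus changed sign; among loci that were not called, Cdh18 (KO minus control) and Cdh11 and Cdh6 (induced minus non-induced) did, with quantile normalization and the trend removed, and Cdh18 also with scaling. The cause of these changes was not tested. No paired analysis was possible because each group has 1 array, and for the same reason no replicate could be left out. Dim signal is a limit of these values: 38.6 to 72.7% of probes per locus were well above background in both channels on the induced array. Its effect on the size and the precision of the differences was not tested.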
